A study of Mus musculus with 6 samples.

Results

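ATF4 and 9 genes it is known to switch on were followed in mouse retina: Atf4 itself, Ddit3, Atf3, Trib3, Chac1, Asns, Sesn2, Ddit4, Psat1 and Slc7a11. These 10 genes were taken by symbol from a table of 55450 genes, of which 13675 were tested. The list was drawn up because Atf3 and Trib3 were low in the third Myrf-kd library, so the values of these genes there are a description and carry no test. All 10 symbols were found, and 9 of them reached a mean of 1 FPKM (fragments per kilobase of transcript, scaled to library size). Slc7a11 lay below that and was tested all the same. A second identifier with the symbol Ddit3, inside the first, held 1 unit in each library and was not used.

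The study compared retinas of wild-type (WT) C57BL/6 mice with those of a group labelled Myrf-kd, which the series describes as Myrf +/−, all aged 8 weeks, in 3 libraries each. Myrf encodes a membrane-bound transcription factor best known from myelin-forming oligodendrocytes. How the Myrf allele was made, which part of the gene it changes and whether each library is a separate animal are not stated in the labels. The p-values therefore measure the spread between these libraries, which may be technical in part. The third library of each group differed in sex from the others, as given below, so it did not come from the same animal. Myrf had 0.279 to 0.382 FPKM in Myrf-kd libraries and 0.359 to 0.463 FPKM in WT libraries, overlapping ranges, with a fitted level of 81.9% of WT (95% interval 59.6% to 113%).

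The integrated stress response is a pathway that slows general protein synthesis when cells meet amino acid shortage, unfolded proteins in the endoplasmic reticulum, heme shortage or viral RNA. Kinases that sense these states phosphorylate the initiation factor eIF2, and the Atf4 message, which carries short upstream reading frames, is then translated more while most others are translated less. ATF4 protein activates genes for amino acid supply, redox balance and, when stress lasts, cell death. Because ATF4 is controlled largely at translation, the level of its messenger RNA does not measure the protein, whereas its target messages change with its activity. The response has been studied in photoreceptor degeneration.

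ATF4 binds DNA with partners of the C/EBP family at a composite element, searched here as TGATGNAA on both strands of the 250 bases before and 50 after each RefSeq start site (build GRCm38.p6). All 10 genes had such a window, 11 windows in all because Psat1 has a second start site. The element stood in the windows of 5 of the 10 genes, against 4.51% of the 27025 genes with a window. These are shown because they are the genes with matching letters, and the capitals mark the matches. Asns (chr6:7693210-7693459, minus strand), Atf3 (chr1:191183334-191183583, minus strand), Chac1 (chr2:119350992-119351241, plus strand) and Slc7a11 (chr3:50443614-50443863, minus strand) are given as the 250 bases before the start site, and Trib3 (chr2:152344028-152344057, minus strand), whose match lies after it, as the 30 bases around the match.
Asns: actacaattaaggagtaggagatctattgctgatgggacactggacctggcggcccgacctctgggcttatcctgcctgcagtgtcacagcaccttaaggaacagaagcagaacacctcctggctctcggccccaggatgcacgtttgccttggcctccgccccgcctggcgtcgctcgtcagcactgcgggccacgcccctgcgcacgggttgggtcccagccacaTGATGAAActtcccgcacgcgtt
Atf3: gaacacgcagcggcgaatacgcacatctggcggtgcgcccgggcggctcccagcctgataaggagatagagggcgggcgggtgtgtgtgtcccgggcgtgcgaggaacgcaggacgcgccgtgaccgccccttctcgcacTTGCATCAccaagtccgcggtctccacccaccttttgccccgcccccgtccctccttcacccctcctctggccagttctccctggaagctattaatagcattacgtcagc
Chac1: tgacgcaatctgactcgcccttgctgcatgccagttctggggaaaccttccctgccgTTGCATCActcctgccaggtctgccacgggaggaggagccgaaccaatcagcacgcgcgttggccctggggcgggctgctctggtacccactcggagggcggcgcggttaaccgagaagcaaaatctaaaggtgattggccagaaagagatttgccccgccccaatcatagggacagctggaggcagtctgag
Slc7a11: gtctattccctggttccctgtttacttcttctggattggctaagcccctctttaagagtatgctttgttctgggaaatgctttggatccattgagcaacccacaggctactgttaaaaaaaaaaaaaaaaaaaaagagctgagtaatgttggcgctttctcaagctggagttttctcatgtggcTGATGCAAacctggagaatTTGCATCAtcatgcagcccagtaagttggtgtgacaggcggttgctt
Trib3: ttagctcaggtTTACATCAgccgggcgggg
Counted from the start site, the matches begin at base -23 in Asns, -110 in Atf3, -193 in Chac1, -66 and -47 in Slc7a11 and 15 in Trib3. Slc7a11 holds 2 of them in opposite orientation. Neither the cyclic AMP response element TGACGTCA (in 2.03% of genes with a window) nor the ER stress element (in 0.137%) was found in the windows of the 10 genes. A match is a run of letters and not a measured binding site.

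Per length, the members spanned a wide range of levels in WT retina. Atf4 was the most abundant, at 125 ± 37.4 FPKM (SD, n = 3), followed by Ddit3 at 41.1 ± 2.90, Ddit4 at 32.0 ± 3.67, Asns at 19.98 ± 1.08 and Atf3 at 17.4 ± 1.43 FPKM. Trib3, Sesn2 and Psat1 came next, at 10.7 ± 0.366, 10.4 ± 0.331 and 9.87 ± 0.488 FPKM. Chac1, at 1.28 ± 0.295 FPKM, and Slc7a11, at 0.251 ± 0.0313 FPKM, were the least abundant. The WT ranges of neighbours in this order overlapped for Trib3 and Sesn2 and for Sesn2 and Psat1, and not for the others. From here on, levels of a gene are in CPM, its share of a library's estimated counts after TMM scaling, which compares libraries and not genes.

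Atf4 messenger RNA was neither lowest in Myrf-kd nor lowest in the third Myrf-kd library. Atf4 (ENSMUSG00000042406, chromosome 15, 80255184 to 80257541, plus strand) was at 457, 296 and 278 CPM in WT 1, 2 and 3 and at 420, 437 and 326 CPM in Myrf-kd 1, 2 and 3. WT 1 and the first and second Myrf-kd libraries were high, WT 2 and WT 3 were low, and the groups overlapped. The fitted ratio of Myrf-kd to WT was 1.15 (95% interval 0.815 to 1.62) and did not pass edgeR's quasi-likelihood test (Benjamini-Hochberg adjusted p = 0.807).

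Both target genes that encode transcription factors, Ddit3 and Atf3, were lower in every Myrf-kd library than in any WT library. The same held for 7.5% of all genes tested, and Atf3 was picked for its low value in Myrf-kd 3. Ddit3 (ENSMUSG00000025408, chromosome 10, 127290774 to 127296288, plus strand), which encodes the C/EBP homologous protein CHOP, was at 74.7, 87.8 and 84.9 CPM in WT 1, 2 and 3 and at 73.5, 70.0 and 44.6 CPM in Myrf-kd 1, 2 and 3. Only the third Myrf-kd library stood well below the WT range, and Myrf-kd 1 lay just under WT 1. The fitted ratio was 0.760 (95% interval 0.559 to 1.03, edgeR adjusted p = 0.688), so the difference did not pass. Reads were not known to be assigned by strand, and Ddit3 shares 68 exonic bases, 3.97% of its own, with the opposite-strand gene Mars. Mars, chosen after its values were seen, was at 145, 130 and 123 CPM in WT 1, 2 and 3 and at 128, 143 and 94.6 CPM in Myrf-kd 1, 2 and 3.

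Atf3 (ENSMUSG00000026628, chromosome 1, 191170296 to 191218039, minus strand) encodes a stress-induced member of the ATF/CREB family that binds DNA alone or with Jun proteins. It was at 46.5, 40.6 and 44.7 CPM in WT 1, 2 and 3 and at 34.5, 27.7 and 7.32 CPM in Myrf-kd 1, 2 and 3. The WT libraries lay close together, while the third Myrf-kd library, with about 124 fragments, was at 16.7% of the WT mean and the other Myrf-kd libraries at 78.6% and 63.0%. The mean of the WT libraries was 43.9 ± 3.02 CPM and that of the Myrf-kd libraries 23.2 ± 14.2 CPM (SD, n = 3), a description that rests partly on the library for which the gene was picked.

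Among the signalling targets, Trib3 repeated the layout of Atf3 at a lower level. Trib3 (ENSMUSG00000032715, chromosome 2, 152337422 to 152344032, minus strand) encodes a pseudokinase that is induced by ATF4 and CHOP and damps them in turn. It was at 27.2, 26.9 and 25.8 CPM in WT 1, 2 and 3 and at 23.3, 18.1 and 7.32 CPM in Myrf-kd 1, 2 and 3. The WT libraries were within a narrow band, all 3 Myrf-kd libraries lay beneath it, and the third was at 27.5% of the WT mean. This gene, too, was picked for that library and is given without a test.

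Sesn2 (ENSMUSG00000028893, chromosome 4, 132492032 to 132510501, minus strand) encodes sestrin 2, a stress-induced inhibitor of mTORC1 signalling. It was at 42.7, 43.7 and 40.9 CPM in WT 1, 2 and 3 and at 38.9, 37.5 and 24.7 CPM in Myrf-kd 1, 2 and 3. The groups did not overlap, with a narrow gap for the first Myrf-kd libraries and a wide one for the third. The fitted ratio was 0.793 (95% interval 0.597 to 1.05, edgeR adjusted p = 0.697).

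Ddit4 and Chac1 did not share this layout. Ddit4 (ENSMUSG00000020108, chromosome 10, 59949669 to 59951834, minus strand), which encodes the mTORC1 inhibitor REDD1 and also answers to glucocorticoids and low oxygen, was at 73.3, 61.4 and 62.3 CPM in WT 1, 2 and 3 and at 77.6, 66.7 and 87.1 CPM in Myrf-kd 1, 2 and 3. It was highest in the library in which Atf3 and Trib3 were lowest, and the groups overlapped through WT 1 and Myrf-kd 2 (ratio 1.18, 95% interval 0.967 to 1.43, edgeR adjusted p = 0.697). Chac1 (ENSMUSG00000027313, chromosome 2, 119351229 to 119354381, plus strand), which encodes an enzyme that degrades glutathione, was at 2.11, 3.15 and 2.12 CPM in WT 1, 2 and 3 and at 3.29, 2.73 and 3.06 CPM in Myrf-kd 1, 2 and 3. The groups overlapped through WT 2, and only 34 to 53 fragments per library lay behind these values (ratio 1.23, 95% interval 0.853 to 1.78, edgeR adjusted p = 0.745).

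The targets of amino acid supply differed among themselves. Asns (ENSMUSG00000029752, chromosome 6, 7675169 to 7693254, minus strand), which encodes asparagine synthetase, was at 64.5, 60.9 and 66.5 CPM in WT 1, 2 and 3 and at 56.4, 65.4 and 46.8 CPM in Myrf-kd 1, 2 and 3. It was lowest in the third Myrf-kd library, while Myrf-kd 2 lay within the WT range (ratio 0.878, 95% interval 0.717 to 1.08, edgeR adjusted p = 0.731). Psat1 (ENSMUSG00000024640, chromosome 19, 15904678 to 15947337, minus strand), which encodes a transaminase of serine synthesis, was at 46.3, 49.6 and 51.8 CPM in WT 1, 2 and 3 and at 42.5, 54.7 and 43.1 CPM in Myrf-kd 1, 2 and 3. Myrf-kd 2 was the highest of all libraries and the other Myrf-kd libraries the lowest, so the groups overlapped (ratio 0.950, 95% interval 0.784 to 1.15, edgeR adjusted p = 0.877).

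Slc7a11 (ENSMUSG00000027737, chromosome 3, 49892526 to 50443614, minus strand), which encodes the cystine and glutamate antiporter that feeds glutathione synthesis, was at 4.53, 3.63 and 4.14 CPM in WT 1, 2 and 3 and at 7.42, 4.45 and 3.71 CPM in Myrf-kd 1, 2 and 3. Myrf-kd 1 stood above all other libraries, which overlapped, on 45 to 119 fragments per library. The fitted ratio was 1.27 (95% interval 0.801 to 2.00, edgeR adjusted p = 0.763), and the log2 fold change of 0.34 became -0.01 without Myrf-kd 1.

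**Figure D1:**
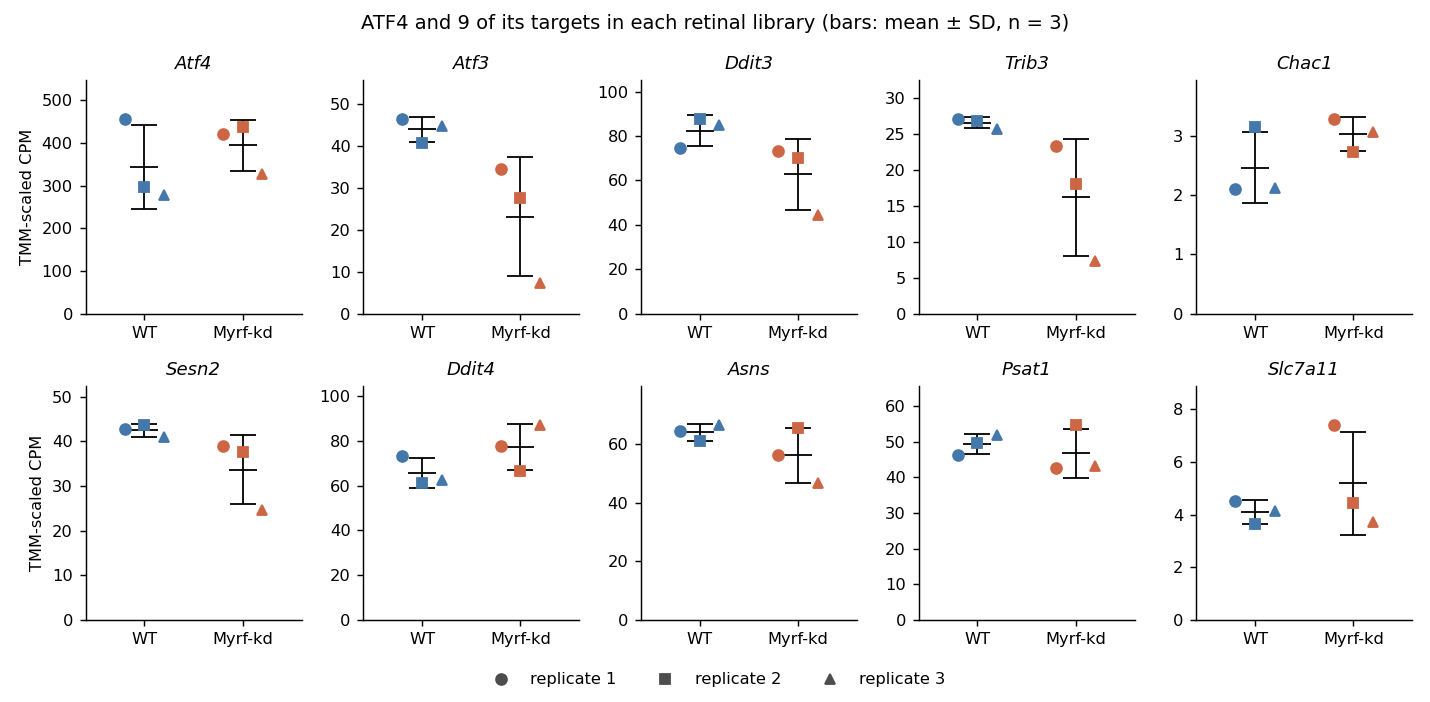
Level of each of the 10 genes in TMM-scaled CPM (vertical axes, each from 0) in the 3 WT and 3 Myrf-kd libraries; symbols give the replicate number and bars the mean ± SD. For Ddit3, Atf3, Trib3 and Sesn2 all Myrf-kd libraries lie below all WT libraries, and the third Myrf-kd library is lowest, with Atf3 and Trib3 both at 7.32 CPM.

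Across the list, 6 of the 10 genes had lower estimates in Myrf-kd and 4 higher ones, where 49.0% of all genes tested were lower. Without Atf3 and Trib3, on which the list was chosen, 4 were lower and 4 higher. The median log2 fold change was -0.13 over all 10 members and 0.00 over all genes tested (0.004). Atf3 and Trib3, picked for low values in Myrf-kd 3, are included in the member median and lower it. Its negative sign rests on these 2 genes, so it is not a result about the list. Atf3 and Trib3 were not tested in this contrast, and by edgeR 0 of the other 8 members passed at an adjusted p under 0.05, a rule met by 0.0439% of all genes tested (0.0146% lower and 0.0293% higher in Myrf-kd). At an unadjusted p under 0.05 there were also 0 of these 8, against 7.49% of all genes (3.73% lower and 3.76% higher). DESeq2 and limma also called 0 of the 8 after adjustment, and DESeq2 had 1 (Ddit3) and limma 0 at an unadjusted p under 0.05. With 1 library left out, edgeR had at an unadjusted p under 0.05 Ddit3 without Myrf-kd 1, Asns and Ddit4 without Myrf-kd 2, Atf4 and Ddit4 without WT 1 and Chac1 without WT 2, and 0 of the 8 without Myrf-kd 3 or WT 3. The groups did not overlap, with Myrf-kd lower, in 4 members, against 7.5% of all genes tested, and with Myrf-kd higher in 0, against 7.13%. The 4 are Atf3 and Trib3, on which the list was chosen, and Ddit3 and Sesn2.

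Leaving out the third Myrf-kd library tests Atf3 and Trib3 on the other libraries. The ratio of Myrf-kd to WT was then 0.708 for Atf3 (log2 fold change -0.50 ± 0.13 SE, unadjusted p = 0.00802) and 0.778 for Trib3 (-0.36 ± 0.13 SE, unadjusted p = 0.0326), both with an edgeR adjusted p of 0.72. By that measure 0 of 10 members passed, against 0.117% of all genes tested in that fit. An unadjusted p under 0.05 was met with a lower estimate by 3.21% of all genes, and by Atf3 and Trib3 of the members, and with a higher one by 3.39% of all genes and 0 members. Ddit3 and Sesn2 moved closer to WT, from -0.40 to -0.20 and from -0.33 to -0.15 on the log2 scale. Atf3, Trib3, Ddit3 and Sesn2 were still lower without overlap, which leaving out a library cannot undo. With 2 libraries against 3, 13.0% of all genes were. The median over the 10 members, Atf3 and Trib3 included, was then -0.05 (-0.045), against a median of -0.00 over all genes.

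**Figure D2:**
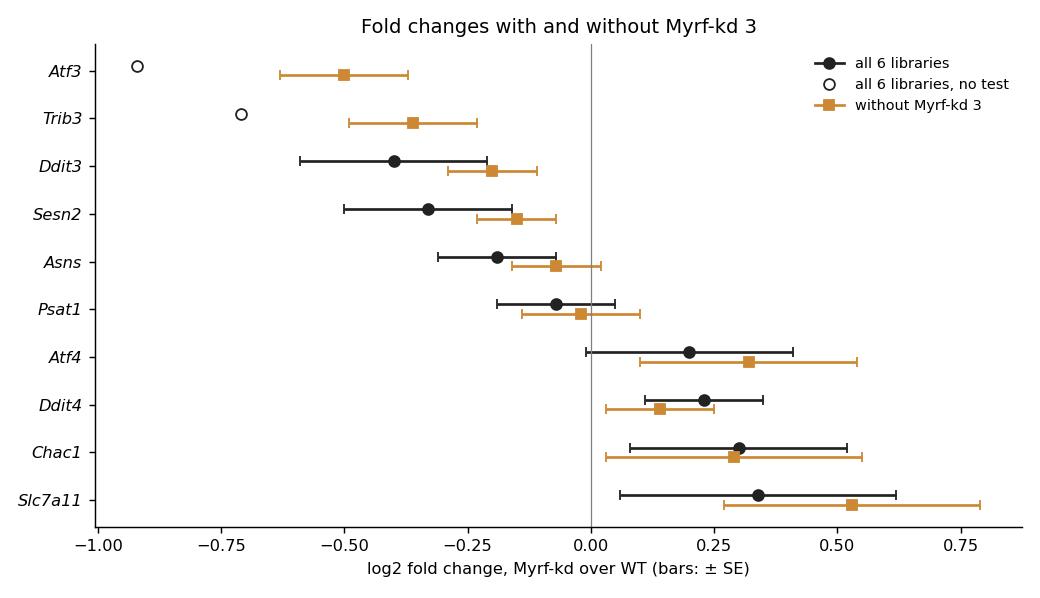
Log2 fold change of Myrf-kd over WT (horizontal axis) for each member from the fit of all 6 libraries (circles) and without the third Myrf-kd library (squares), with bars of ± SE; open circles are Atf3 and Trib3, given without a test. Atf3 moves from -0.92 to -0.50 and Trib3 from -0.71 to -0.36, and both stay below 0.

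The members were then set side by side in the third Myrf-kd library, in which 5 of 10 (Ddit3, Atf3, Trib3, Asns and Sesn2) had their lowest level of the 6 libraries. Atf3 and Trib3 were chosen for that, so the count to read is 3 of the other 8. That library held the lowest value of 25.2% of all genes tested and the highest of 25.7%, the largest shares of the 6 libraries, the next being 19.2% lowest and 17.5% highest, both in WT 2. As a ratio to the mean of the other 5 libraries, Atf3 was at 0.189, Trib3 at 0.302, Ddit3 at 0.570, Sesn2 at 0.606 and Asns at 0.745. Ratios at or below that of Ddit3 were found in 3.39% of all genes tested, and at or below those of Sesn2 and Asns in 4.25% and 9.55%. Slc7a11 was at 0.768, Atf4 at 0.865, Psat1 at 0.879, Chac1 at 1.14 and Ddit4 at 1.28. Of the 8 genes other than Atf3 and Trib3, only Chac1 and Ddit4 were above 1, where the median ratio of all genes tested was 1.0.

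The libraries differed in other ways that bear on these values. Totals ran from 50695091 units in WT 2 to 70298511 in WT 3, about 4 units to a fragment. Xist, the RNA of the inactive X chromosome, reached 1450 CPM in Myrf-kd 3 and, in WT 3, 1240 CPM, and at most 8.16 CPM in the others, so these 2 libraries came from females. WT 3 had Atf3 and Trib3 at the WT level, but Myrf-kd 3 was the 1 female Myrf-kd library, so sex within Myrf-kd and this library cannot be told apart. Lens genes (16 of 16 found, 7 tested, with 0 listed at 0 in every library) summed to 85.3 CPM in Myrf-kd 3, to 2.63 and 1.87 CPM in the other Myrf-kd libraries and to 20.1 to 30.4 CPM in WT. The 8 rod markers, led by rhodopsin and defining for retina, summed to between 32900 and 36000 CPM in the Myrf-kd libraries, against 37100 to 54900 CPM in the WT ones, the only 1 of 13 marker lists without overlap. The part of rod, lens or sex differences in the results was not tested. In RNA of whole retina, fewer cells of a type and less RNA per cell cannot be told apart.

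The machinery upstream of ATF4 did not share the low values of that library. The list held 23 symbols, for eIF2 kinases, eIF2, its exchange factor eIF2B, the eIF2 phosphatase and some other genes. Those others, where tested, were Oma1, Dele1, Impact, Gcn1l1 and Dnajc3. In all, 21 genes were tested, 14 with higher and 7 with lower estimates (median log2 fold change 0.04). By edgeR 0 passed and 2 were at an unadjusted p under 0.05. Eif2ak1, the heme-sensing kinase, was at 51.7, 48.5 and 50.1 CPM in WT 1, 2 and 3 and at 55.0, 58.6 and 56.8 CPM in Myrf-kd 1, 2 and 3 (unadjusted p = 0.0269, adjusted p = 0.666 by edgeR). Ppp1r15b, a constant subunit of the eIF2 phosphatase, was at 150, 141 and 142 CPM in WT 1, 2 and 3 and at 127, 133 and 103 CPM in Myrf-kd 1, 2 and 3 (edgeR adjusted p = 0.666). Both had groups without overlap, in opposite directions. Eif2b4, an eIF2B subunit, had a ratio of 1.16 with overlapping groups. The library Myrf-kd 3 was lowest for 4 of the 21 genes (19.0%), below its share over all genes.

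Partners and relatives of ATF4 of the bZIP class showed no common direction. Of 17 symbols 13 were tested, 6 with higher and 7 with lower estimates, 0 passed by edgeR and 1 was at an unadjusted p under 0.05. Cebpd was at 5.91, 5.57 and 5.89 CPM in WT 1, 2 and 3 and at 4.28, 3.21 and 4.73 CPM in Myrf-kd 1, 2 and 3, lower without overlap (edgeR adjusted p = 0.666). The ratio was 0.862 for Jdp2, a repressor related to Atf3, and 0.850 for Nfe2l2, which encodes the oxidative stress factor NRF2. Creb1, chosen here after its values were seen, lay between 9.28 and 79.3 CPM in Myrf-kd libraries, and between 10.3 and 82.0 CPM in WT libraries, a spread within both groups that leaves its level uncertain.

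Other known ATF4 targets, with some relatives of targets, were grouped by role. The groups that charge or carry amino acids stood lowest in the third Myrf-kd library. Of 13 aminoacyl-tRNA synthetase and tRNA export genes, which load amino acids on tRNA, 11 (84.6%) had their lowest level there, against 25.2% of all genes tested, with a median ratio of 0.725 to the other 5 libraries. In the other libraries that median lay between 1.01 and 1.16. Aars, for alanine, was at 271 CPM in Myrf-kd 3, at 455 and 472 CPM in the other Myrf-kd libraries and at 460 to 496 CPM in WT. Cars, for cysteine, was at 66.2 CPM in Myrf-kd 3, at 117 and 129 CPM in the other Myrf-kd libraries and at 114 to 136 CPM in WT. Wars, for tryptophan, was the exception in being highest in that library, at 90.5 CPM. Aars, Cars and Wars were chosen after their values were seen.

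Between the genotypes, 12 of the 13 had lower estimates (median log2 fold change -0.12), 0 passed by edgeR and 0 were at an unadjusted p under 0.05. The asparagine enzyme gene Nars was at 262, 254 and 264 CPM in WT 1, 2 and 3 and at 241, 249 and 200 CPM in Myrf-kd 1, 2 and 3, lower without overlap (edgeR adjusted p = 0.697). The ratio was 0.931 for the tRNA export gene Xpot and 0.854 for the tyrosine enzyme gene Yars, and Xpot was also lower without overlap.

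Amino acid transporters were lowest in that library in 7 of 9 genes (77.8%), against 25.2% of all genes tested. Their median ratio to the other libraries was 0.751. Slc7a1, the carrier of cationic amino acids, had the lowest ratio of the genes on all 10 pathway lists, 0.183. It was at 159, 122 and 161 CPM in WT 1, 2 and 3 and at 136, 143 and 26.4 CPM in Myrf-kd 1, 2 and 3. The first and second Myrf-kd libraries lay inside the WT range, so the low value was that of Myrf-kd 3. Slc1a4, a neutral amino acid carrier, was at 25.4 CPM there and at 48.0 to 57.4 CPM in the other 5 libraries. Both genes were chosen after their values were seen.

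All 9 transporters had lower estimates in Myrf-kd (median log2 fold change -0.19), while 0 passed by edgeR and 0 were at an unadjusted p under 0.05. Slc3a2, the heavy chain that pairs with the Slc7a11 product, was at 165, 170 and 171 CPM in WT 1, 2 and 3 and at 157, 157 and 123 CPM in Myrf-kd 1, 2 and 3, lower without overlap (edgeR adjusted p = 0.695). Slc1a5, a glutamine carrier, was lower without overlap at a ratio of 0.863, and Slc7a5, a light chain for large neutral amino acids, had a ratio of 0.878 with overlap.

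**Figure D3:**
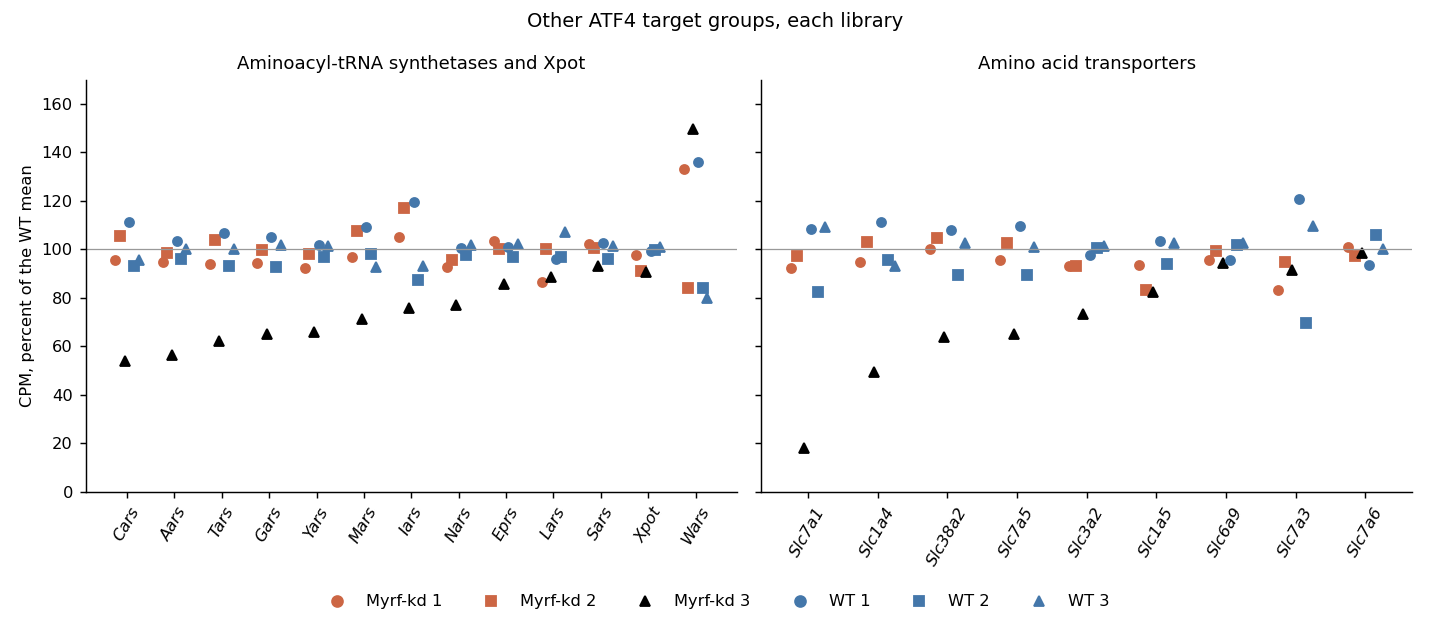
Levels of 13 aminoacyl-tRNA synthetase and export genes (left) and 9 amino acid transporters (right) in each library, as percent of the WT mean (vertical axis), ordered by the ratio in Myrf-kd 3. Black triangles, Myrf-kd 3, are lowest for 11 of 13 and 7 of 9 genes.

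Enzymes of serine, one-carbon and amino acid synthesis were mixed. Of 13 genes 10 were tested, 4 with higher and 6 with lower estimates, 0 passed by edgeR and 0 were at an unadjusted p under 0.05. In Myrf-kd 3, 4 of the 10 were lowest, against 25.2% of all genes tested. Mthfd2, a mitochondrial folate enzyme chosen after its values were seen, was at 49.9, 40.4 and 42.9 CPM in WT 1, 2 and 3 and at 39.4, 44.9 and 11.3 CPM in Myrf-kd 1, 2 and 3. It was low in that library alone, while Psph, the last enzyme of serine synthesis and likewise chosen after its values were seen, was not, at 20.6 CPM against 17.5 to 21.6 CPM in the others. Bcat1, Cth and Shmt2, which had the smallest p of the group, had ratios of 0.881, 1.24 and 0.931 with overlapping groups.

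The stress, secreted and signalling group, which also holds relatives of targets such as Sesn1, Chac2 and Ddit4l, split in both directions. Of 22 genes 15 were tested, 6 with higher and 9 with lower estimates, 0 passed by edgeR and 5 were at an unadjusted p under 0.05, against 7.49% of all genes. Nupr1, a stress-induced chromatin protein gene, was at 8.33, 8.07 and 9.02 CPM in WT 1, 2 and 3 and at 6.75, 6.24 and 5.07 CPM in Myrf-kd 1, 2 and 3 (unadjusted p = 0.0145, edgeR adjusted p = 0.666). Sesn1, a relative of Sesn2 known as a p53 target, was at 169, 174 and 185 CPM in WT 1, 2 and 3 and at 160, 141 and 118 CPM in Myrf-kd 1, 2 and 3 (edgeR adjusted p = 0.666). Both were lower without overlap and lowest in the third Myrf-kd library.

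The autophagy gene Map1lc3b was at 175, 182 and 83.4 CPM in WT 1, 2 and 3 and at 88.9, 80.4 and 89.0 CPM in Myrf-kd 1, 2 and 3. WT 3 lay with the Myrf-kd libraries and apart from its own group, and without WT 3 the gene passed (edgeR adjusted p = 0.0169, between 0.0169 and 0.904 over the settings tried). Its level differed as much within WT as between groups, so its value and that call are uncertain. Chac2, the relative of Chac1, and Ddit4l, the relative of Ddit4, were the remaining genes at an unadjusted p under 0.05 and are named after their values were seen. Chac2 was at 8.61, 7.18 and 8.58 CPM in WT 1, 2 and 3 and at 10.7, 9.25 and 12.2 CPM in Myrf-kd 1, 2 and 3, higher without overlap (edgeR unadjusted p = 0.0332). Ddit4l was at 4.53, 3.43 and 5.04 CPM in WT 1, 2 and 3 and at 6.98, 5.06 and 6.64 CPM in Myrf-kd 1, 2 and 3, likewise higher without overlap (edgeR unadjusted p = 0.0423).

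Atf3 is also an immediate early gene, and most genes of that class did not follow it. Immediate early genes are switched on within minutes of stimulation or handling. Of 24 symbols 15 genes were tested, and 8 of them had their highest level in Myrf-kd 3 and 2 their lowest. The median ratio to the other libraries was 1.19. Of all genes tested, 25.7% were highest and 25.2% lowest in that library. Fos was at 37.2 CPM in Myrf-kd 3, at 18.3 and 19.0 CPM in the other Myrf-kd libraries and at 9.09 to 26.2 CPM in WT. Egr1 was at 38.2 CPM in Myrf-kd 3, at 14.7 and 17.9 CPM in the other Myrf-kd libraries and at 13.6 to 23.3 CPM in WT. The library with the lowest Atf3 thus had the highest Fos and Egr1, both chosen after their values were seen.

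The genes Jun and Jund, which encode dimer partners of ATF3, ran the same way as Atf3, while Junb did not. Junb, on the same list and chosen after its values were seen, was highest in Myrf-kd 3, at 11.5 CPM. That was 1.19 times the mean of the other libraries. Its groups overlapped, with a fitted ratio of Myrf-kd to WT of 0.943 (edgeR unadjusted p = 0.633). Jun was at 100 (100.3), 93.1 and 117 CPM in WT 1, 2 and 3 and at 78.5, 62.4 and 44.9 CPM in Myrf-kd 1, 2 and 3. It was lower without overlap, at a ratio of 0.599 (log2 fold change -0.74 ± 0.20 SE, unadjusted p = 0.00796, edgeR adjusted p = 0.666). DESeq2 called it, with an adjusted p of 0.0394, and over the settings tried the adjusted p lay between 0.0394 and 0.923. Jund was at 35.5, 38.5 and 41.3 CPM in WT 1, 2 and 3 and at 32.4, 30.3 and 28.0 CPM in Myrf-kd 1, 2 and 3, also without overlap (edgeR unadjusted p = 0.0100, adjusted p = 0.666). Of the 15 genes 10 had higher and 5 lower estimates, and 0 passed by edgeR. Btg2, an antiproliferative gene, had a ratio of 1.10.

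Other stress pathways were set beside these for comparison. Of 17 ER chaperone and quality control genes, which answer to ATF6 and XBP1, 13 had lower estimates (median log2 fold change -0.09). In Myrf-kd 3, 10 (58.8%) were lowest, against 25.2% of all genes tested, with a median ratio of 0.860. By edgeR 0 passed and 1, Hspa5, was at an unadjusted p under 0.05, with a ratio of 0.837. Dnajb11 and Pdia3 had ratios of 0.906 and 0.872. Of 8 tested NRF2 targets 6 had lower estimates, and 1 was lowest in Myrf-kd 3. Nqo1, a quinone reductase gene, had a ratio of 0.672 (edgeR unadjusted p = 0.0210), Srxn1 of 1.25 and Hmox1 of 0.763.

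Of 11 glucocorticoid and mTOR genes, listed because Ddit4 answers to the first and acts on the second, 5 had higher and 6 lower estimates, and 2 were lowest in Myrf-kd 3. Klf9, a glucocorticoid-responsive gene, was at 254, 267 and 270 (270.1) CPM in WT 1, 2 and 3 and at 248, 213 and 189 CPM in Myrf-kd 1, 2 and 3, lower without overlap (edgeR unadjusted p = 0.0272). The clock gene Per1 had a ratio of 0.826 (edgeR unadjusted p = 0.0334), and Rptor, an mTORC1 subunit, of 1.10. Sgk1, on the same list and chosen after its values were seen, was higher without overlap (edgeR unadjusted p = 0.268). It was at 432, 431 and 416 CPM in WT 1, 2 and 3 and at 436, 440 and 467 CPM in Myrf-kd 1, 2 and 3. Over all 10 lists 132 genes were tested, 52 with higher and 80 with lower estimates (60.6% lower, against 49.0% of all genes). An unadjusted p under 0.05 was reached by 14 (10.6%, against 7.49% of all genes). By edgeR and limma 0 of them passed, and by DESeq2 1, Jun.

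**Figure D4:**
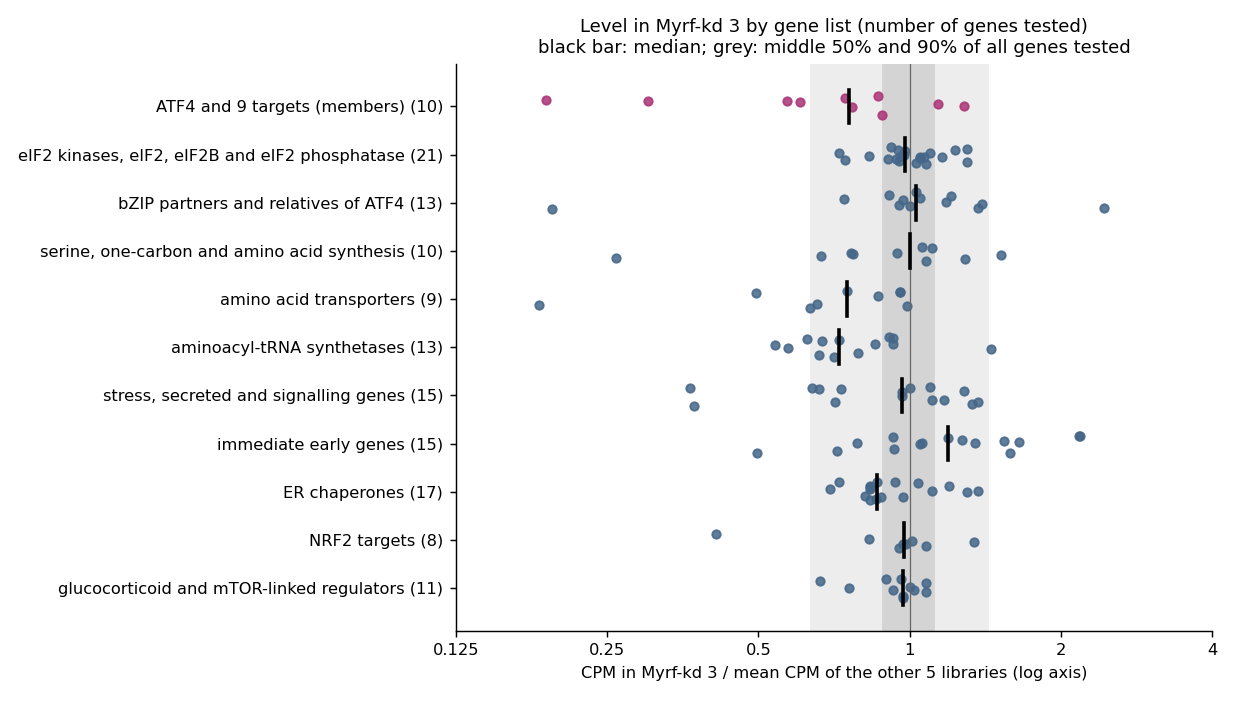
Level in Myrf-kd 3 as a ratio to the mean of the other 5 libraries (horizontal log axis), 1 point per gene, for the 10 members and 10 pathway lists; black bars are medians and grey bands the middle 50% and 90% of all genes tested. The median is 0.757 for the members, with Atf3 and Trib3, chosen for low values in that library, included. Medians are 0.725 for synthetases, 0.751 for transporters and 1.19 for immediate early genes.

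The mean profile of the 9 members above 1 FPKM, from log2 CPM standardized per gene over the 6 libraries, was -0.995 in Myrf-kd 3 and between 0.061 and 0.278 in the others, with the values of Atf3 and Trib3 for which the list was chosen included. The tested genes closest to it by mean absolute difference over the 6 libraries were Atp6v0a1 (0.322), Spsb1 (0.327), Spata13 (0.328), Stum (0.328) and C4bp-ps1 (0.329). Atp6v0a1, a subunit of the vesicular proton pump, was at 263 CPM in Myrf-kd 3, at 324 and 328 CPM in the other Myrf-kd libraries and at 322 to 358 CPM in WT. Spsb1 was at 2.73 CPM in Myrf-kd 3, at 8.07 and 7.77 CPM in the other Myrf-kd libraries and at 6.84 to 10.7 CPM in WT. The choice by profile fixes that these genes are low in Myrf-kd 3. C4bp-ps1, a pseudogene that can share reads with related genes, is uncertain.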

How the data were processed

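Retinal RNA of 3 Myrf-kd and 3 WT libraries was extracted with Trizol and made into Illumina libraries, per the labels' protocols. The submitters' processing notes name the build GRCm38 and list StringTie 1.3.0, HISAT2 2.0 and Bowtie 0.12.2 without roles. The authors deposited an FPKM and a count per gene and library, per the file headers. The deposited counts were read as estimated counts, because 4 units were listed more often than 1, 2, 3, 5 or 8, so that 1 fragment is about 4 units. They were already whole. How strand was handled is not stated there.

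Genes with a mean of at least 1 FPKM, with Slc7a11 and Myrf added, were tested (13675 genes) with edgeR 4.0.16 (quasi-likelihood, TMM factors, genotype only), two-sided, with Benjamini-Hochberg adjustment and a threshold of 0.05. SE is the log2 fold change over the root of F. limma 3.58.1 on log2(FPKM + 1) and DESeq2 1.42.0 were alternatives, among 16 settings in all. On simulated data the test recovered 8 of 50 genes changed 1.5-fold and 35 of 50 changed 2-fold. A gene that did not pass may thus still differ by such an amount. The biological coefficient of variation was 20.3%.

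Members and lists were chosen with earlier results of these data known. Named are the members, up to 3 genes per pathway list with the smallest p, the 5 genes of most similar profile and Myrf, and others are marked as chosen after their values were seen. No pair of libraries of a group agreed within sampling noise (the lowest chi-square over its degrees of freedom was 18.7). Promoter sequences are RefSeq's.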

Additional observations from a re-analysis of the deposited data

How the results depend on the processing

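Of the 128 log2 fold changes of the 8 members not used to choose the list, under 16 alternatives, 126 kept their direction and side of the threshold. The exceptions were Slc7a11, between -0.01 (without Myrf-kd 1) and 0.53 when 1 library was left out, and Psat1, at 0.02 without both libraries numbered 3. These 8 had adjusted p-values between 0.538 and 0.992, and 0 of them passed in the 16 alternatives. Atf3 and Trib3 were lower in all 32 of their values, and were tested, without passing, only in the 2 settings without Myrf-kd 3. The median log2 fold change over all 10 members was -0.13 (-0.131), with Atf3 and Trib3, on which the list was chosen, included and giving it its negative sign. That median lay between -0.257 and -0.045 when 1 library was left out and was -0.010 without both libraries numbered 3. Among the other named genes, with 1 library left out, Stum lay between -0.15 and 0.03 and C4bp-ps1 between -0.53 and 0.06, both highest without Myrf-kd 3, and Stum was at 0.01 without both libraries numbered 3. The count of pathway list genes past the threshold, 0, was 1 with DESeq2 (Jun), 1 without both libraries numbered 3 (Map1lc3b) and 0 to 1 when 1 library was left out. The count over all genes, 6, was 2 at a mean FPKM of at least 5, 53 with DESeq2, 22 without both libraries numbered 3 and 9 to 16 when 1 library was left out. With the replicate number as a block it was 0. The numbers were not taken to pair the libraries, since deviations of same-numbered libraries correlated at -0.042, 0.082 and 0.140. Not every library correlated best with its own number, although Myrf-kd 2 and Myrf-kd 3 did. Both libraries numbered 3 came from females, so that number was matched for sex. In counts chosen after seeing the data, members lower without overlap numbered 4 to 6 when 1 library was left out, Atf3 and Trib3 included. Leaving out a library cannot lower that count, and the share over all genes was then 10.8% to 14.4%. The 6 came without Myrf-kd 2, when Asns and Psat1 joined, against 11.4% of all genes. Members higher without overlap were Ddit4 without Myrf-kd 2, Atf4 and Ddit4 without WT 1 and Chac1 without WT 2. The shares of all genes there were 11.5%, 14.9% and 10.9%. With FPKM in place of CPM, 5 members, 11 synthetase genes and 7 transporters were again lowest in Myrf-kd 3. Low fragment numbers limit Chac1 and Slc7a11.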
